A study of Mus musculus with 3 samples.

Results

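The 8 genes Zfp57, Zfp445, Trim28, Setdb1, Hells, Smarca4, Ctcf and Npm2 encode factors that the mouse egg supplies to protect imprints and remodel chromatin after fertilisation, and their histone marks were read here over their own genes in the fully grown oocyte. The histone mark H3K36me3 was mapped by native ChIP-seq for very few cells (ULI-nChIP-seq), in which unfixed chromatin is cut by micrococcal nuclease and precipitated with an antibody. Each of 3 replicates pooled about 280 GV oocytes, which still hold the intact nucleus called the germinal vesicle. All came from 25-day-old wildtype C57BL6/Babr mice, so the study had a single group, without treatment, mutant or control group. The 2 kb windows overlapping the GENCODE M21 bodies (GRCm38) of these genes, or the 10 kb on both sides, were taken by position alone: 228 windows out of 1186323 valid windows of the genome. Of these, 150 overlapped a gene body and 78 lay in the flanks, on 7 chromosomes.

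Genomic imprints are DNA methylation marks, set in the germline, that the embryo must keep while most other methylation is erased. The zinc finger proteins ZFP57 and ZFP445 recognise methylated imprinted regions and recruit TRIM28 (KAP1), which in turn brings in the H3K9 methyltransferase SETDB1. HELLS (LSH) and SMARCA4 (BRG1) are ATP-driven chromatin remodellers, CTCF is the insulator protein that binds the unmethylated allele at some imprinted regions, and NPM2 is the egg's nucleoplasmin, a histone chaperone. H3K36me3 is laid down by SETD2 in the wake of elongating RNA polymerase II, and in the growing oocyte it is needed for DNA methylation of transcribed regions. H3K4me3 marks promoters and, in oocytes, also broad untranscribed domains, and H3K27me3 is the mark of Polycomb repression.

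A level is the mean value over a set of windows, in the RPKM of the authors, computed within each replicate and then given as mean ± SD of the 3 replicates. A window was called enriched when its mean of the 3 replicates was above 1, which is identical to the H3K36me3 call of the authors in every valid window. Replicate 1 had 7888140 reads in windows, replicate 2 had 2692510 and replicate 3 had 3166564, so that a single read was worth 0.136, 0.396 and 0.338 RPKM, respectively. The 8 gene bodies together held 4120 reads, from 99 in Npm2 to 1539 in Smarca4, and values of single windows are therefore coarse. Replicate 2 was made with less antibody. No source says that the pools were prepared from separate mice, so that the spread between them may be technical. As a check of the cell type, 10 of 10 oocyte genes (among them Zp3, Gdf9 and Bmp15) had a level above 1, with a median of 2.28. Of all protein-coding genes 52.5% had a level above 1. Of 10 genes of ovarian somatic cells, 2 did (Nr5a1, 1.59 ± 0.07, and Amh, 1.39 ± 0.68). Their median was 0.477, and 9 of the 10 had at least 1 window called for H3K27me3. The share of all protein-coding genes with such a window is not given here, and the bodies of these 10 held from 2 to 102 windows.

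The sequences before the start sites of these genes differed widely in CpG content. The 250 bases before the RefSeq start sites of GRCm38.p6 held between 3 and 40 CpG dinucleotides in the 7 genes with an entry in the promoter table used here. Over 32851 RefSeq start sites the median was 6 and the quartiles were 2 and 16, with at least 1 CpG at 92.1% of the sites. Ctcf had 40, Hells 28, Smarca4 25, Trim28 17 and Setdb1 13, whereas Zfp445 had 5 and the 3 start sites of Zfp57 had 6, 7 and 3, near or below the median. The Trim28 site is the start of its coding transcript at 13024152, far inside the annotated body, and the inner sites of Zfp57 (37002525 and 37003666) lie within the gene, in a window called for both H3K4me3 and H3K36me3. CpG was searched as the letters CG, which read the same on the opposite strand. The sequences below are 5′ to 3′ along transcription in lower case with each CpG in capitals. They are shown to set the densest (Ctcf) and the start without a read (Setdb1) beside the GENCODE starts of both zinc finger genes. Both of the latter (Zfp445 and Zfp57) had CpG counts near the median. The RefSeq model of Zfp445 begins further upstream, at chr9:122886851, and that start was not analysed here. The sequences cover the stretches of the 250 bases that lie outside annotated exons of coding genes. They are chr8:105636288-105636473 on the forward strand for Ctcf (32 CpG in 186 bases), chr3:95357203-95357452 on the reverse strand for Setdb1 (13 in 250), chr9:122866011-122866256 on the reverse strand for Zfp445 (5 in 246) and chr17:37000913-37001162 on the forward strand for Zfp57 (6 in 250).
Ctcf: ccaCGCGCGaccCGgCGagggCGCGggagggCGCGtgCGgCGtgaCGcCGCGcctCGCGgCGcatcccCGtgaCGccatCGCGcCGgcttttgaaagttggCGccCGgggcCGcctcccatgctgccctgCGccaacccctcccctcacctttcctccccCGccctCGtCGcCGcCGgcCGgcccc
Setdb1: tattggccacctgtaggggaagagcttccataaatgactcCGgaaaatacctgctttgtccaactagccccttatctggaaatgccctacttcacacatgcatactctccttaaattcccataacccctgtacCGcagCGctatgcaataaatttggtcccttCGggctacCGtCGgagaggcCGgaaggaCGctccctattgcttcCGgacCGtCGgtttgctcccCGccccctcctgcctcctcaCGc
Zfp445: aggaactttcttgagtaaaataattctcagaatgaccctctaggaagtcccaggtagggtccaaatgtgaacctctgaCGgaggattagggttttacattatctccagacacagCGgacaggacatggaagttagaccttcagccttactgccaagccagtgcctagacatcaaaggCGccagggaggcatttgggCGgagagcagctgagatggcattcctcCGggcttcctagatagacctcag
Zfp57: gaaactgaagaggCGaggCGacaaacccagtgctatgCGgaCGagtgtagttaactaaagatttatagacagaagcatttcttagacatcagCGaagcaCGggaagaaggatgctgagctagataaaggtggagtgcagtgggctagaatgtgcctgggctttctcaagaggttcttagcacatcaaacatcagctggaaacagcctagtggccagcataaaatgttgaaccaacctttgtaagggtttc

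H3K36me3 covered most of the gene bodies. Of the 150 body windows, 126 (84.0%) were enriched, beside 51.2% of the windows in all protein-coding gene bodies and 31.8% of all valid windows. In 100 of the 150 (66.7%) the value was above 1 in each replicate, beside 34% in all protein-coding bodies. By gene, 7 of the 8 had a body level above 1, beside 52.5% of 21063 protein-coding genes, and 6 of the 8 were above 1 in each replicate, beside 46.5%. The median level of the 8 genes was 2.32 RPKM, and that of all protein-coding genes was 1.11. Among the 15516 protein-coding genes of at least 5 windows, a length that all 8 reach, the median was 1.38. These counts are a description of a named set of genes and were not tested.

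Levels of 5 genes lay close together between 2.31 and 2.71 RPKM, and their order among themselves was not resolved. Smarca4 (chr9:21616169-21704230, forward strand, 45 body windows), the catalytic ATPase of BAF complexes, had 2.59, 2.83 and 2.70 RPKM in replicates 1, 2 and 3, a mean of 2.71 ± 0.12 that was higher than in 97.0% of protein-coding genes. Hells (chr19:38930915-38971051, forward strand, 21 windows) had 2.15, 3.11 and 2.34, mean 2.53 ± 0.51, at percentile 94.2. Setdb1 (chr3:95323525-95357202, reverse strand, 18 windows) had 2.35, 2.91 and 2.16, mean 2.47 ± 0.39, at percentile 92.8. In Hells and Setdb1 replicate 2 was the highest and the other pair lay close together. Zfp57 (chr17:37001163-37010635, forward strand, 6 windows) had 1.83, 2.91 and 2.26, mean 2.33 ± 0.54, at percentile 89.0, and with windows assigned by their midpoint its 2.93 was the highest of the 8. Ctcf (chr8:105636568-105682922, forward strand, 24 windows) had 2.03, 2.56 and 2.33, mean 2.31 ± 0.26, at percentile 88.0. All of these 5 genes were well above 1 in each replicate.

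The other 3 genes were lower. Zfp445 (chr9:122844529-122866006, reverse strand, 12 windows) had 1.53, 1.59 and 1.69, mean 1.60 ± 0.08, at percentile 63.6. Npm2 (chr14:70647302-70659244, reverse strand, 7 windows) had 0.970, 1.70 and 0.919, mean 1.20 ± 0.44, at percentile 52.2, and it was above 1 through replicate 2. Without replicate 2 its mean was 0.944, and 6 of the 8 genes were above 1. Trim28 (chr7:12999114-13031035, forward strand, 17 windows) had 0.887, 0.769 and 0.995, mean 0.884 ± 0.11, at percentile 44.8, below 1 in each replicate.

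**Figure D1:**
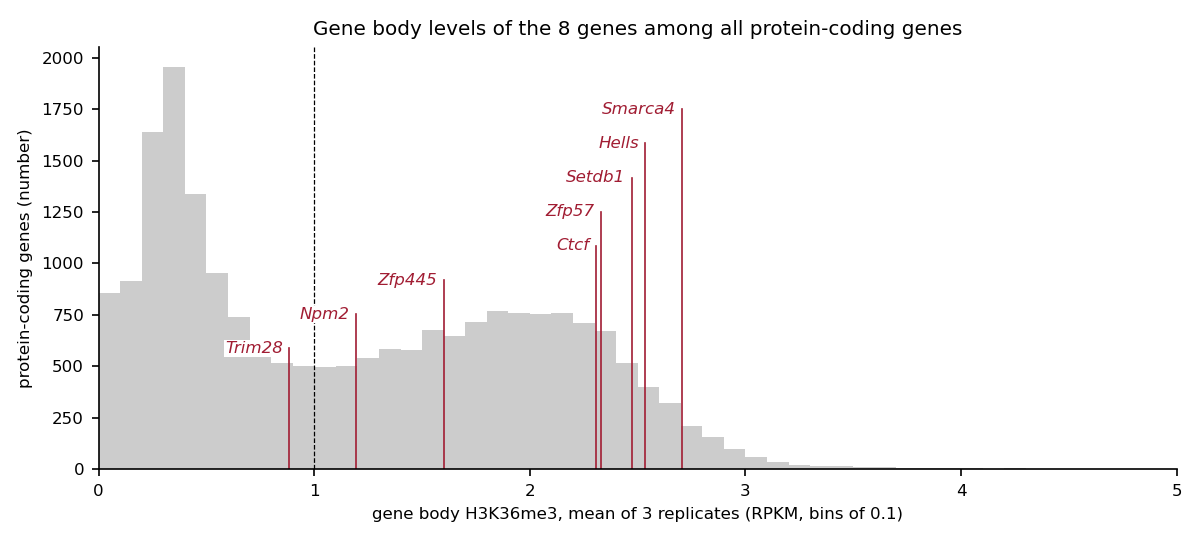
Number of protein-coding genes (vertical axis) by gene body H3K36me3 level in RPKM (horizontal axis, mean of 3 replicates, bins of 0.1); the dashed line is the enrichment threshold of 1 and red lines are the 8 genes. Zfp57, Ctcf, Setdb1, Hells and Smarca4 sit between 2.31 and 2.71 on the right side of the upper hump, Zfp445 lies at 1.60, and Npm2 (1.20) and Trim28 (0.884) lie in the trough beside the threshold.

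In the order of levels, no neighbours were told apart by the test. Of 7 neighbouring pairs, the difference had the same sign in all 3 replicates in 1, Ctcf above Zfp445 by 0.704 ± 0.24 RPKM (exact permutation test by sign flips of the 3 replicates, two-sided, p = 0.25, adjusted p = 0.875 over the 7 pairs). With 3 replicates 0.25 is the smallest p this test can give. Smarca4 over Hells differed by 0.172 ± 0.40, Hells over Setdb1 by 0.063 ± 0.22, Setdb1 over Zfp57 by 0.140 ± 0.33 and Zfp57 over Ctcf by 0.026 ± 0.28, all within the spread of the replicates. Likewise, Zfp445 over Npm2 (0.406 ± 0.46) and Npm2 over Trim28 (0.312 ± 0.54) did not keep their sign.

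**Figure D2:**
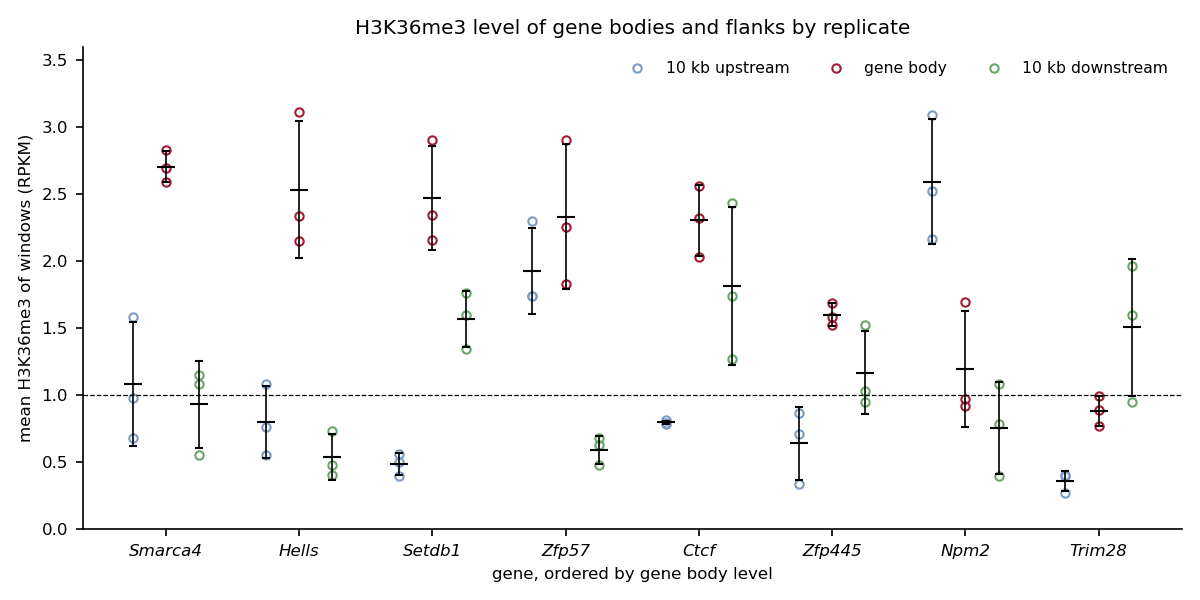
H3K36me3 level in RPKM (vertical axis) of the gene body (red), the 10 kb upstream (blue) and the 10 kb downstream (green) of each gene, ordered by body level; circles are the 3 replicates, black bars their mean ± SD and the dashed line the threshold of 1. Body levels of Smarca4, Hells and Setdb1 lie above their flanks in each replicate, while Npm2 has a higher upstream flank (2.59 ± 0.47) and Trim28 a higher downstream flank (1.51 ± 0.51) than body.

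The signal was mostly raised over the gene against its surroundings. In 6 of the 8 genes the body exceeded the flanks in each replicate, beside 43.1% of protein-coding genes, and the median of the log2 ratio of body over flanks was 0.87 over the 8 genes. Hells had the largest, 1.92 ± 0.58 on the log2 scale (1.53, 2.60 and 1.65 in replicates 1 to 3), followed by Smarca4 with 1.43 ± 0.12 and Setdb1 with 1.09 ± 0.43. Zfp57 (0.87 ± 0.45), Zfp445 (0.87 ± 0.52) and Ctcf (0.84 ± 0.42) were close to each other. For each of these 6 genes the two-sided exact sign-flip permutation test gave its minimum, p = 0.25. The ratio was -0.05 ± 0.21 in Trim28 (exact sign-flip permutation test, p = 1.0), with mixed signs, and -0.54 ± 0.44 in Npm2 (exact sign-flip permutation test, p = 0.25), where the flanks were higher in each replicate.

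Along the 4 long genes Hells, Smarca4, Setdb1 and Ctcf, a set named after their values were seen, H3K36me3 was almost unbroken. Together 104 of their 108 body windows (96.3%) were enriched and 6 (5.56%) were called for H3K4me3. In all protein-coding bodies these shares were 51.2% and 26.2%. Trim28, with a body of 31.9 kb beside 33.7 kb in Setdb1, was not in the set. In Smarca4 44 of 45 body windows were enriched, and the unbroken run reached on past the gene end over 92 kb (46 windows, 2.70 ± 0.09 RPKM, 35 windows above 1 in each replicate). The run was 48 kb in Ctcf, where all 24 body windows were enriched, and 42 kb in Hells. In Setdb1 it was 38 kb and ran on into Cers2, a ceramide synthase gene on the other strand whose annotated end overlaps that of Setdb1. ChIP reads have no strand, so the signal where the genes overlap cannot be given to either.

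The highest windows of these genes lay well inside them. In Smarca4 the highest was chr9:21670001-21672000, about 55 kb from the start and mostly intronic (87 exonic bases, all coding), with 3.67, 5.95 and 5.75 RPKM in replicates 1 to 3. In Hells it was chr19:38946001-38948000 with 2.72, 5.55 and 3.38, and in Ctcf chr8:105672001-105674000, entirely intronic, with 2.31, 3.57 and 5.75. In Setdb1 it was chr3:95338001-95340000 with 2.85, 4.76 and 3.38, a mean of 3.66. The last window of Setdb1, chr3:95322001-95324000, which overlaps Cers2, was almost as high with 3.39, 5.15 and 2.37, a mean of 3.64. The highest windows of all 4 genes were above 1 in each replicate.

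**Figure D3:**
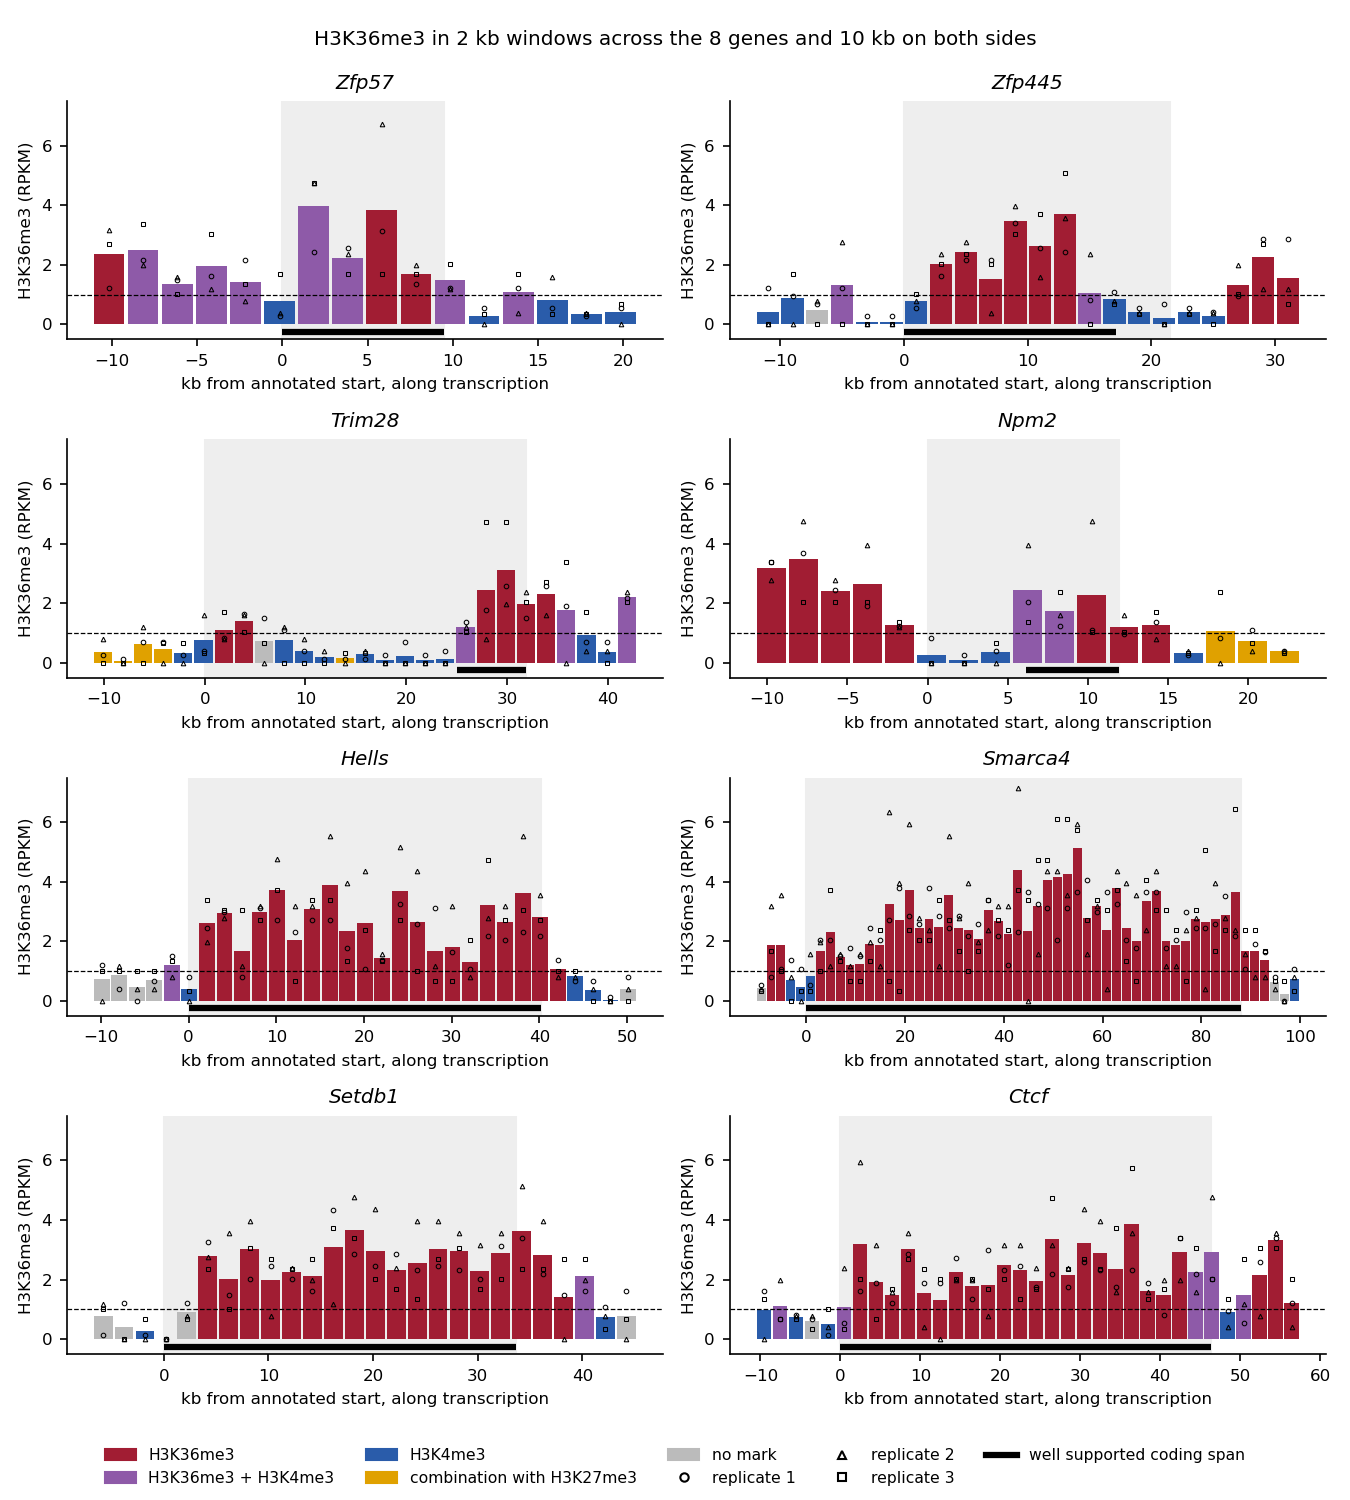
H3K36me3 in RPKM (vertical axis) of each 2 kb window against its distance in kb from the annotated gene start along transcription (horizontal axis), one panel per gene; bars are means of 3 replicates coloured by the marks called in the window, symbols are the replicates, grey shading is the annotated body, the black line below is the span of well supported coding transcripts and the dashed line is 1. Red bars (H3K36me3 alone) fill Hells, Smarca4, Setdb1 and Ctcf almost from start to end. Within the annotated bodies of Trim28 and Npm2, red and purple bars (H3K36me3 with H3K4me3) sit mostly over the coding span. Blue bars (H3K4me3) cover most of the rest of these bodies. Red bars also lie in the flanks of both genes, in Npm2 in all 5 upstream windows.

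In 3 of the lower genes the annotated body was longer than the span of its well supported coding transcripts, and H3K36me3 followed the latter. These are GENCODE basic protein-coding transcripts of support level 1, and this comparison was added after the values were seen. In Trim28 the coding transcript spans chr7:13024152-13031035 (forward strand), while the upstream rest of the annotated body rests on a single processed transcript and partly overlaps Zbtb45, a gene on the other strand. The 4 windows of the coding span had 1.80, 1.59 and 3.13 RPKM, mean 2.17 ± 0.84, and all 4 were enriched. The other 13 windows had 0.606, 0.518 and 0.338, mean 0.488 ± 0.14, with 2 enriched and 10 called for H3K4me3. Groups of replicate values from the coding span and from the rest did not overlap.

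Npm2 showed the same arrangement. Its coding transcript spans chr14:70647302-70653084, and the annotated body is lengthened upstream by a transcript of the class non-stop decay that overlaps Xpo7, an exportin gene on the same strand. The RefSeq gene also reaches further upstream, to 70661802. The 4 windows of the coding span had 1.32, 2.97 and 1.44 RPKM, mean 1.91 ± 0.92, and all 4 were enriched. The other 3 windows had 0.498, 0 and 0.226, none was enriched and all 3 were called for H3K4me3. The replicates differed most in chr14:70648001-70650000, where 8, 12 and 3 reads gave 1.09, 4.76 and 1.02 RPKM, so that replicate 2 stood above the others through few reads. In Zfp445 the coding span chr9:122848910-122866006 had 1.71, 1.86 and 2.00, mean 1.86 ± 0.14, with 7 of 10 windows enriched, and the 2 windows past its end had 0.326 ± 0.25, both called for H3K4me3 only.

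Over all 8 genes, 124 of 132 coding span windows (93.9%) were enriched, beside 53.1% in the coding spans of all protein-coding genes. Of the 18 body windows outside, 2 were enriched, beside 38.6% of such windows of all protein-coding genes, and 15 were called for H3K4me3. The H3K4me3 share of such windows of all protein-coding genes is not given here. Over all windows of protein-coding bodies it was 26.2%. All 8 genes had a coding span level above 1, beside 58.7% of 16875 protein-coding genes with such a span, with Trim28 and Npm2 both changing by more than 1.5 times from their body level.

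Zfp57 and Zfp445 each had a short stretch of high windows. In Zfp57 5 of 6 body windows were enriched, all 5 in each replicate, as a run of 10 kb at 2.64 ± 0.67 RPKM. Its highest window, chr17:37002001-37004000, held non-coding exon sequence of Zfp57, with 2.44, 4.76 and 4.74 RPKM, and it was called for H3K36me3 and H3K4me3. The window chr17:37006001-37008000 had 3.12, 6.74 and 1.69, a wide spread in which replicate 2 was highest. The run in Zfp445 was 14 kb at 2.41 ± 0.22, with its highest window, chr9:122852001-122854000, over the large coding exon (1988 coding bases of the window), at 2.44, 3.57 and 5.08.

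The annotated starts of the 8 genes were low in H3K36me3. All 8 start windows were called for H3K4me3, beside 76.8% of the start windows of protein-coding genes, and 7 of 8 lacked H3K36me3, beside 77.9%. In 6 of the 8 genes the start window was the lowest of the body, a count for which the share over all protein-coding genes is not given here. Setdb1 had 0 reads there in each replicate, which allows up to 0.407, 1.19 and 1.02 RPKM in replicates 1, 2 and 3 (3 reads, counting error only). Ctcf was the exception, with 0.543, 2.38 and 0.338 RPKM in chr8:105636001-105638000, a mean of 1.09 that passed the threshold through the 6 reads of replicate 2. This window also overlaps the annotated start of Agrp, on the other strand. These counts rest on the annotated bodies. At the starts of the coding spans, 8 of 8 windows were again called for H3K4me3, beside 83.9% of such windows of all protein-coding genes, but 5 of 8 lacked H3K36me3, beside 75.8%. The windows of Trim28 (1.19 ± 0.17) and Npm2 (2.45 ± 1.35) were enriched there, each in all 3 replicates.

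From the 5′ to the 3′ part of the gene the level changed in some members. With the windows split at the middle of each gene, Npm2 had 0.241 ± 0.25 in the 5′ part and 1.91 ± 0.92 in the 3′ part, and Setdb1 had 2.02 ± 0.07 and 2.92 ± 0.85. Ctcf had 2.02 ± 0.30 and 2.59 ± 0.44, and Hells 2.57 ± 0.37 and 2.50 ± 0.65. Zfp57 was as high in the 5′ part (2.33 ± 0.50) as in the 3′ part (2.34 ± 0.84), and Zfp445 had 1.72 ± 0.03 and 1.48 ± 0.14. Trim28 had 0.644 ± 0.14 and 1.15 ± 0.39, and Smarca4 2.40 ± 0.53 and 3.00 ± 0.41. The replicates of both parts did not overlap in 4 of the 8 genes, beside 32.4% of protein-coding genes: the 3′ part was higher in Npm2, Trim28 and Setdb1 and lower in Zfp445. These parts rest on the annotated bodies. In Npm2 they are the same windows as the rest of the body and the coding span above. The whole 5′ part of Trim28 lies before its coding transcript, and the 3′ part of Zfp445 holds the 2 windows past its coding span. In Setdb1 the 5′ part holds the start window without a read and the next window at 0.897 ± 0.29 RPKM. A split without these low windows is not given here, so a gradual rise along Setdb1 is not shown.

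Of the other marks, H3K4me3 was the one found in these bodies. It was called, without replicates and from libraries the same laboratory published earlier, in 32 of 150 body windows (21.3%), beside 26.2% in all protein-coding bodies. It was unequally spread. Zfp57, Zfp445, Trim28 and Npm2, left outside the 4 long genes named after the values were seen, held 26 of the 32. These lay in 61.9% of their 42 windows, with 22 of the 42 (52.4%) enriched in H3K36me3. Of these 26, 15 lay outside the coding spans of Trim28 (10), Npm2 (3) and Zfp445 (2). Within the coding spans of all 8 genes 17 of 132 windows (12.9%) were called for H3K4me3, beside 26.1% in all coding spans, and these 4 genes held 11 of the 17 in 24 windows. By gene, over the annotated bodies, there were 11 in Trim28, 6 in Zfp445, 5 in Npm2, 4 in Zfp57 and 3 in Ctcf, and 1 each in Hells, Smarca4 and Setdb1, where it was the start window.

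Overlap of H3K4me3 with H3K36me3 was near the background over the annotated bodies. Of the 32 body windows with H3K4me3, 10 (31.2%) were also enriched in H3K36me3, beside 27.6% of such windows in all protein-coding bodies. All 10 lay in the coding spans, where they were 10 of 17 (58.8%), beside 28.8% in all coding spans. These 10 were 3 in Zfp57, 3 in Ctcf, 2 in Npm2, 1 in Zfp445 and 1 in Trim28. The level of H3K36me3 in windows with H3K4me3 was 0.832, 1.08 and 0.772 RPKM in replicates 1 to 3, and in the 118 windows without it 2.35, 2.83 and 2.52. The log2 ratio was -1.53 ± 0.16 (exact sign-flip permutation test, p = 0.25, the smallest possible), and without windows that hold a protein-coding gene start it was -1.24 ± 0.11 (22 windows). Within the coding spans alone it was -0.89 ± 0.16, with 1.42 ± 0.30 RPKM in the 17 windows with H3K4me3 and 2.61 ± 0.25 in those without. Over the annotated bodies of all protein-coding genes it was -0.85 ± 0.10, which stands beside the -1.53 of the annotated bodies here. A value for the coding spans of all genes is not given here. The difference between the 8 genes and all bodies was not tested.

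H3K27me3 was nearly missing from the bodies. A single body window of 150 carried it, beside 25.9% in all protein-coding bodies, namely chr7:13012001-13014000 of Trim28, outside the coding span, together with H3K4me3 and with an H3K36me3 value of 0.158 ± 0.17. In the flanks 7 of 78 windows (8.97%) carried it, beside 28.4% of flank windows of all protein-coding genes, other genes included. There were 4 upstream of Trim28 in Slc27a5, a bile acid and fatty acid ligase gene of the liver, and 3 downstream of Npm2 in the growth factor gene Fgf17. Of the 150 body windows 2 had no mark at all, 1 in Trim28 and 1 in Setdb1. The share of such windows over all protein-coding bodies is not given here.

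**Figure D4:**
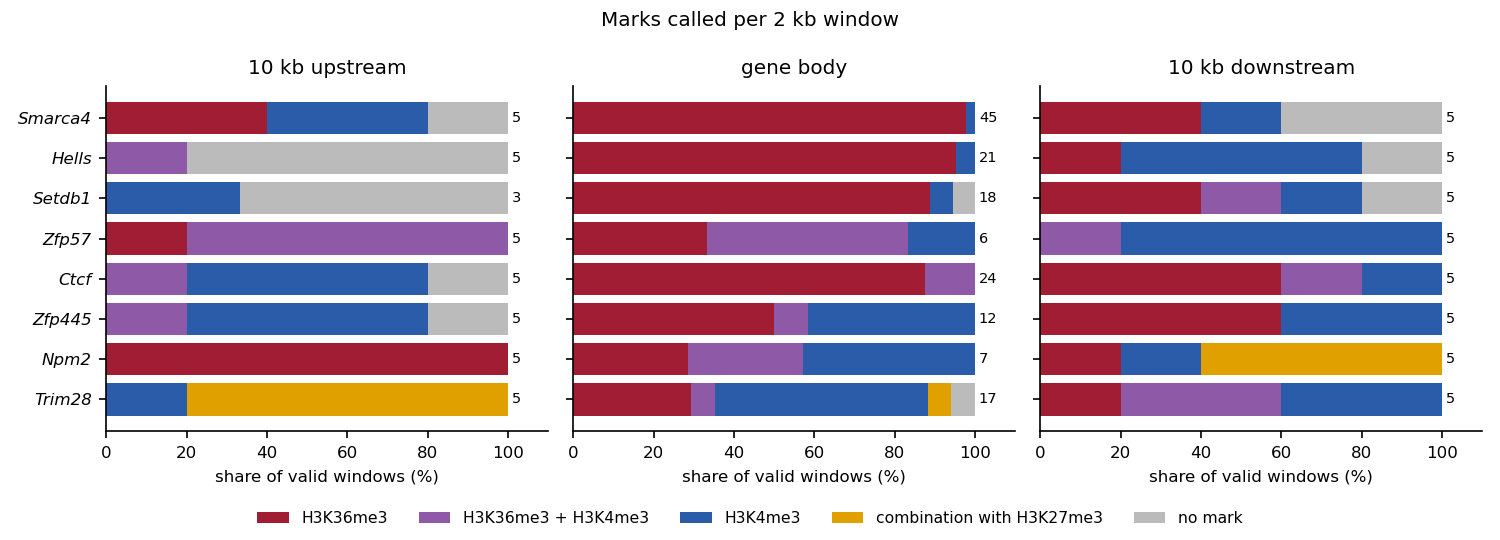
Share of valid 2 kb windows (horizontal axis, %) by the marks called, for the 10 kb upstream, the gene body and the 10 kb downstream of each gene, with the number of windows at the end of each bar. H3K36me3 without another mark fills most of the bodies of Smarca4, Hells, Setdb1 and Ctcf, H3K4me3 is called in 11 of 17 windows of Trim28, and H3K27me3 is confined in this plot to Trim28 and the downstream side of Npm2.

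In the flanks 34 of 78 windows (43.6%) were enriched, 15 of 38 upstream and 19 of 40 downstream, and 44 (56.4%) were called for H3K4me3. Over the flanks of all protein-coding genes, other genes included, these shares were 33.5% and 42%. Many of these windows belong to other genes. Of the 41 flank windows within another protein-coding gene 20 (48.8%) were enriched, beside 51.2% of the windows in all protein-coding bodies. Of the 37 outside, 14 (37.8%) were enriched, beside 18.9% of all windows within 10 kb of but outside protein-coding genes. The 37 include 10 each of Smarca4 (4 enriched) and Hells (2 enriched) and 5 of Zfp57 (5 enriched).

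The upstream side of Zfp57 carried H3K36me3 without another GENCODE gene in it. All 5 windows were enriched, at 1.74, 1.74 and 2.30 RPKM in replicates 1 to 3 (1.93 ± 0.32), and 4 of the 5 also carried H3K4me3. Of the other genes, Zfp445 and Hells also had no GENCODE gene in their upstream windows, and 1 window of 5 was enriched in each. The RefSeq model of Zfp445 begins at chr9:122886851 and so holds its upstream windows. Among 7101 protein-coding genes of that kind, 3.8% had all upstream windows enriched. The run of enriched windows that ended at the Zfp57 start window was chr17:36974001-37000000, 26 kb at 1.88 ± 0.25 RPKM, with 7 of its 13 windows above 1 in each replicate and 7 called for H3K4me3. It reached back over H2-M5, a class Ib histocompatibility gene on the reverse strand, which ends at 36989537 in GENCODE and at 36997955 in RefSeq. Downstream, the 5 windows lay over Mog, a myelin gene on the other strand, with 0.592 ± 0.10 RPKM, all 5 called for H3K4me3 and 1 enriched.

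Neighbouring genes differed widely in level. Of 12 protein-coding neighbours within 10 kb of 6 of the genes, 7 had a body level above 1, beside 52.5% of all protein-coding genes. Xpo7, upstream of Npm2, had 1.69 ± 0.09, and the 5 upstream windows of Npm2 inside it were all enriched at 2.59 ± 0.47. Tcaim (2.60 ± 0.65) and Gm35549 (1.93 ± 0.56), beyond the end of Zfp445, Cers2 (2.14 ± 0.22), next to Setdb1, and Carmil2 (2.04 ± 0.52), after Ctcf, were also above 1. At the end of Trim28, Chmp2a, an ESCRT-III subunit gene, had 2.03 ± 1.14, and Ube2m, which encodes the E2 enzyme of neddylation, 1.01 ± 0.72, and the Trim28 run of 12 kb continued into both. Levels were 0.694 ± 0.32 for Zbtb45, 0.428 ± 0.16 for Slc27a5, 0.624 ± 0.32 for Fgf17, 0.654 ± 0.13 for Mog and 0.784 ± 0.10 for Agrp. Hells and Smarca4 had no protein-coding neighbour in this distance.

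Other genes of imprint protection and maternal chromatin were mostly enriched too. Of 33 listed genes, chosen for their function in DNA methylation maintenance, heterochromatin, histone chaperones and remodelling complexes, 31 had a body level above 1 and 31 in each replicate, beside the shares of 52.5% and 46.5% given above. Their median was 2.10 RPKM, and 941 of their 1040 windows (90.5%) were enriched, beside 51.2% in all protein-coding bodies. The list was drawn up with earlier results of these data known. The highest were Cabin1 (2.98 ± 0.18) and Hira (2.76 ± 0.13), which encode subunits of the HIRA complex that deposits the histone variant H3.3. The lowest were Cdca7 (0.869 ± 0.26), the gene of a HELLS partner, and Ctcfl (0.320 ± 0.06), the testis paralogue of Ctcf. Ctcfl had 0 of 14 windows enriched, 12 called for H3K27me3 and 7 for H3K4me3, and it was the only gene of the 33 with an H3K27me3 call. These 12 stand among 1040 windows of the 33 genes, beside 25.9% of windows in all protein-coding bodies. The share of all protein-coding genes with such a call is not given here. The paralogue Ctcf had 24 of 24 body windows enriched and none called for H3K27me3.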

How the data were processed

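The authors trimmed reads with TrimGalore, mapped them to GRCm38 with Bowtie2 2.2.9 and counted them in SeqMonk over 2 kb windows; windows with very low or very high input were removed. The deposited values, called RPKM by the authors, are linear per replicate. All (100%) were whole multiples of the value of 1 read (tolerance 0.1 read), from which reads were recovered, and in windows of fixed size they act as CPM. A value above 1 takes 8 reads in replicate 1 and 3 in replicates 2 and 3. Removal of duplicates is not stated, so floors cover counting error only. The deposited category table names marks per window, without replicates.

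Windows were assigned to genes by overlap (Python 3.11.15, pandas 2.3.3, numpy 2.4.6). Body and flanks were compared within replicates as log2 ratios without pseudocount, with two-sided exact sign-flip permutation tests over 3 replicates. With a single group no count model was needed. Script steps were tested on simulated data.

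Named genes were the 8 members, protein-coding neighbours within 10 kb, and the highest 2 and lowest 2 of the 33 further genes; for each member the highest windows and longest runs. Members, lists and tests were chosen with earlier results of these data known. Alternatives covered replicates, window assignment, averaging, thresholds, read minimum (3), starts, flanks, pseudocount (0.1) and coding spans, the last chosen after seeing the data. Promoter sequences came from RefSeq (GRCm38.p6). The promoter table used here held no entry for Npm2, whose start sequence was not analysed here.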

Additional observations from a re-analysis of the deposited data

How the results depend on the processing

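Of 50 recomputed summary values, 35 stayed close to those reported, 15 moved and 0 reversed; of 64 recomputed gene levels, 53 moved by less than 1 SD between replicates and 11 by more. Neighbouring pairs whose difference had 1 sign in all replicates, 1 of 7 as reported, became 3 with windows assigned by midpoint, 3 with the median over windows, 2 with windows of at least 3 reads and 3 without windows near the start, and ranged from 2 to 3 when a replicate was left out, where only 2 signs have to match. These counts are not tests. The median log2 ratio of body over flanks rose from 0.87 to 1.33 with the median over windows and to 1.43 with flank windows outside other annotated genes. Body windows with H3K4me3 fell to 21 without windows near the start and to 17 in the coding spans, where H3K27me3 windows were 0. In the coding spans the H3K4me3 share also fell, from 21.3% to 12.9%, since 15 of the 18 windows left out carried the mark. Enriched flank windows were 13 at a threshold of 2, 16 when each replicate had to pass and 13 outside other annotated genes. Genes above 1 were between 5 (threshold of 2) and 8 (coding spans, or windows of at least 3 reads, with Trim28 at 1.12). No paired analysis was possible because all samples belong to a single group, and replicate numbers pair no samples across groups. The comparisons within replicates are paired as reported. Depth limits single windows, since 1 read is worth 0.396 RPKM in replicate 2, and p cannot fall below 0.25 with 3 replicates.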
